A study of Capra hircus with 6 samples.

Results

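COX1, COX2, COX3, CYTB, ATP6 and ATP8 are the protein genes of mitochondrial DNA that encode subunits of respiratory complexes IV, III and V. All 6 were taken by name from the deposited expression table of goat intramuscular preadipocytes, which lists 27271 genes, and each name occurred once. All 6 passed the filter on low counts. The mitochondrial genome also carries 7 subunit genes of complex I, which are given here only for comparison.

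Complexes III and IV pass electrons from ubiquinol through cytochrome c to oxygen and pump protons across the inner mitochondrial membrane, and complex V uses the returning protons to make ATP. The mitochondrially encoded proteins form the core of each complex, around which many subunits encoded in the nucleus are assembled. Mitochondrial DNA is read as long transcripts from both of its strands, which are then cut into the individual RNAs, so that neighbouring genes begin as parts of one molecule. Of the protein genes, ND6 alone is encoded on the strand opposite to the rest. White fat cells and their precursors hold fewer mitochondria than muscle or brown fat, and adipogenic differentiation is known to be accompanied by the formation of mitochondria.

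The cells were primary preadipocytes from the longissimus dorsi of Jianzhou goats 3 days of age, with a wild-type genotype. They received either a control siRNA (NC groups, n = 3) or a single siRNA directed at LIPG, the gene of endothelial lipase (Si-LIPG groups, n = 3). Both groups were then induced to differentiate with 50 μmol/L oleic acid, and RNA was taken at 48 h. The comparison asks which transcripts differ when LIPG is silenced during differentiation. The study's methods call the 3 samples of a group biological replicates, but the sources used here do not say whether they came from separate animals or from separate cultures, and the p values measure the spread between these libraries.

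The NC libraries had 524776 to 703680 reads counted on genes and the Si-LIPG libraries 864882 to 1051230, out of 36451898 to 52638817 reads per library. This share was 1.31% ± 0.279 in NC and 2.44% ± 0.566 in Si-LIPG (SD, n = 3 each), with no overlap. LIPG itself had at most 2 reads in any library of either group, so its silencing was not detectable at this depth, and every direction given here rests on the group labels of the libraries, which LIPG could not check. The library protocol keeps the strand, but the strand setting of the counting is not given in the sources used here. Whether the reads counted on COX1, COX2, COX3, CYTB, ATP6 and ATP8 came from their own strand or from the opposite one was not tested. Each value is therefore one of reads counted on the gene. Reads on no feature made up 91.6% to 93.7% of a library. ND6, encoded on the other strand, had an FPKM (reads scaled by the length of the gene and by the library's reads on genes) 12.7 to 44.2 times that of the highest of the 6 genes in the same library. Of 12 preadipocyte markers in the files, 11 had a count and DLK1 was at 0. Their summed level ranged from 12971 to 26913 CPM (counts scaled to a fixed total, here of the reads on genes) in NC. In Si-LIPG it ranged from 38522 to 39903 CPM. Most of this sum came from the collagen genes COL1A1 and COL1A2. They had 2841 and 2716 reads in NC 1, beside 24 for PDGFRA and 26 for THY1. Muscle markers (13 of 14 with a count, MYF6 at 0) summed to 309 to 472 CPM in NC and 551 to 618 CPM in Si-LIPG, and adipocyte markers (11 of 13, with CD36 and LPL at 0) to 118 to 226 CPM and 184 to 454 CPM. These sums carry the shift of all genes on this scale, and after TMM scaling the tested muscle markers had a median log2 fold change of -0.25, with 4 of 6 below 0. For the tested preadipocyte markers the median was 0.29, with 8 of 10 above 0, and for the adipocyte markers 0.19, with 2 of 3 above 0. The median over all tested genes was 0.16. Immune markers (4 of 7, with CD3E, ITGAM and PTPRC at 0) reached at most 43.2 CPM, and endothelial markers (2 of 6, with KDR, TEK, CDH5 and CLDN5 at 0) at most 7.12 CPM. The part of these marker levels in the results on the 6 genes was not tested, and in bulk RNA fewer cells of a type cannot be told apart from less RNA per cell.

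Between the groups, the 6 genes did not move as a block. By the quasi-likelihood test of edgeR with TMM scaling, which sets the bulk of the genes equal between libraries, reads on COX2 and ATP8 were lower in the Si-LIPG groups (adjusted p of 0.0417 and 0.0485), although COX2 was level (log2 fold change 0.032) with all reads as the scale. The other 4 did not pass the adjusted threshold, with log2 fold changes (Si-LIPG over NC) of 0.70 for COX1, 0.14 for CYTB, -0.04 for COX3 and -0.28 for ATP6. The median over the 6 genes was -0.16, against 0.16 over all 6574 genes tested. Calls at an adjusted p under 0.05 were made for 6.51% of all tested genes, 0.974% higher and 5.54% lower, and for 2 of the 6, both lower. The balance over all genes turned with the scaling, from 64 higher and 364 lower to 116 higher and 7 lower with the reads on genes alone as the scale, and to 750 higher and 0 lower with all reads. At the study's own criterion, an unadjusted p under 0.05 with a fold change over 1.5, the same 2 genes passed in edgeR, beside 20.7% of all tested genes (7.83% higher and 12.9% lower). With DESeq2, the tool that the study names, COX1 passed it too (log2 fold change 0.70, adjusted p = 0.0591). In DESeq2, 629 genes passed as higher in Si-LIPG and 1064 as lower. At an unadjusted p under 0.05 alone, DESeq2 gave 1695 genes, which is also the study's total. The study's text gives the opposite balance, with 1064 genes higher after silencing, the same number that was lower here. The directions here are thus nearly the mirror image of those in the study. Whether the group labels or the study's contrast are reversed was not tested. Each direction given here therefore holds under the group labels alone and may be inverted. The TMM-scaled CPM values of COX1, COX2, ATP6 and ATP8 did not overlap between the groups, 4 of 6 genes, as was the case for 28.7% of all tested genes.

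COX1 encodes the catalytic subunit of complex IV, which holds the heme and copper centre where oxygen is reduced. Its FPKM values were 893, 1456 and 1684 in NC 1, 2 and 3, against 2153, 3821 and 3789 in Si-LIPG 1, 2 and 3. Every Si-LIPG library was above every NC library, and Si-LIPG 1 was the lowest of its group. The mean was 1344 ± 407 FPKM in NC and 3254 ± 954 FPKM in Si-LIPG (SD, n = 3 each). After TMM scaling the log2 fold change of COX1 was 0.70 (SE 0.33, edgeR adjusted p = 0.249), and it was positive under every scaling tried. It passed the adjusted threshold of edgeR when scaled by the reads on genes alone (1.30, adjusted p = 0.0495) and when scaled to all reads in the files (2.17, adjusted p = 0.0462).

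COX2 encodes the complex IV subunit that takes electrons from cytochrome c at its copper centre. Its FPKM values were 3978, 2788 and 2294 in NC 1, 2 and 3, against 1954, 1607 and 1360 in Si-LIPG 1, 2 and 3. Thus the order of COX1 was turned around, with every Si-LIPG library below every NC library. The mean was 3020 ± 866 FPKM in NC and 1640 ± 298 FPKM in Si-LIPG (SD, n = 3 each). The log2 fold change after TMM scaling was -1.54 (SE 0.41, edgeR adjusted p = 0.0417). NC 1, the library with the fewest reads on genes, was the highest for COX2, and without it the log2 fold change was -0.99 (edgeR adjusted p = 0.109). The call was also lost without NC 2, Si-LIPG 2 or Si-LIPG 3 (adjusted p = 0.0634, 0.251 and 0.267 from edgeR). As raw counts, COX2 hardly differed between the libraries, with 1428, 1148 and 1104 reads in NC and 1156, 1080 and 978 reads in Si-LIPG. Over all reads in the files, its level was 26.02 ± 1.78 CPM in NC and 26.6 ± 2.43 CPM in Si-LIPG (SD, n = 3 each), and the groups overlapped.

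COX3, the third core subunit of complex IV, binds lipid and is thought to steady the complex. COX3 had 2542, 2233 and 1098 FPKM in NC 1, 2 and 3, against 2149, 3611 and 3548 FPKM in Si-LIPG 1, 2 and 3. Si-LIPG 1 lay below NC 1 and NC 2, so the groups overlapped. The difference of the means, 1958 ± 760 against 3102 ± 826 FPKM (SD, n = 3 each), did not exceed what the spread of the libraries allows (two-sided exact permutation test, p = 0.3, where the smallest p for 3 against 3 is 0.1). Its log2 fold change was -0.04 after TMM scaling (SE 0.41, edgeR adjusted p = 0.969) and 1.68 when scaled to all reads (adjusted p = 0.0462).

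CYTB, cytochrome b, is the only subunit of complex III made in the mitochondrion and holds the sites where ubiquinol is oxidised and ubiquinone reduced. It had 881, 1972 and 2718 FPKM in NC 1, 2 and 3, against 2803, 2830 and 3045 FPKM in Si-LIPG 1, 2 and 3. The Si-LIPG libraries lay close together, with a coefficient of variation of 4.58%, whereas the NC libraries spread over 3.08-fold with a coefficient of variation of 49.7%. NC 3 lay just under the lowest Si-LIPG library. On the TMM scale both groups overlapped, with a log2 fold change of 0.14 for CYTB (SE 0.35, edgeR adjusted p = 0.868).

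ATP6 encodes the subunit of complex V that forms the proton channel beside the rotating ring. ATP6 had 3193, 3735 and 3721 FPKM in NC 1, 2 and 3, against 4131, 4603 and 4520 FPKM in Si-LIPG 1, 2 and 3. In FPKM it varied least of the 6 genes, with a coefficient of variation of 13.5% over all 6 libraries, beside 34.5% to 54.6% for the other 5. This did not hold over all reads, where ATP6 ran from 21.7 to 88.8 CPM and COX2 only from 24.0 to 28.9 CPM. The mean FPKM of ATP6 was 3549 ± 309 in NC and 4418 ± 252 in Si-LIPG (SD, n = 3 each), a ratio of 1.24 without overlap. The TMM-scaled levels also did not overlap but ran the other way, with a log2 fold change of -0.28 (SE 0.32, edgeR adjusted p = 0.690), and with all reads as the scale it was 1.20 (adjusted p = 0.0462). The direction of ATP6 therefore depended on the scaling.

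ATP8 encodes a small membrane subunit of complex V next to the one made from ATP6. ATP8 was the gene with by far the fewest reads, 19, 27 and 19 in NC 1, 2 and 3, against 10, 17 and 13 in Si-LIPG 1, 2 and 3. Per length, these were 183, 227 and 136 FPKM in NC and 58.4, 87.4 and 62.5 FPKM in Si-LIPG, so that every Si-LIPG library lay below every NC library. The log2 fold change of ATP8 after TMM scaling was -1.98 (SE 0.56, edgeR adjusted p = 0.0485), and it was negative under every scaling, at -0.47 (adjusted p = 0.593) when all reads were the scale. The call was lost on leaving out any library other than NC 3, with edgeR adjusted p between 0.0708 and 0.255. At 681 bp for ATP6 and 198 bp for ATP8, the lengths behind the FPKM values equal those of RefSeq's goat assembly ARS1.2, and the stated insert of 300 ± 50 bp is longer than the whole of ATP8.

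**Figure D1:**
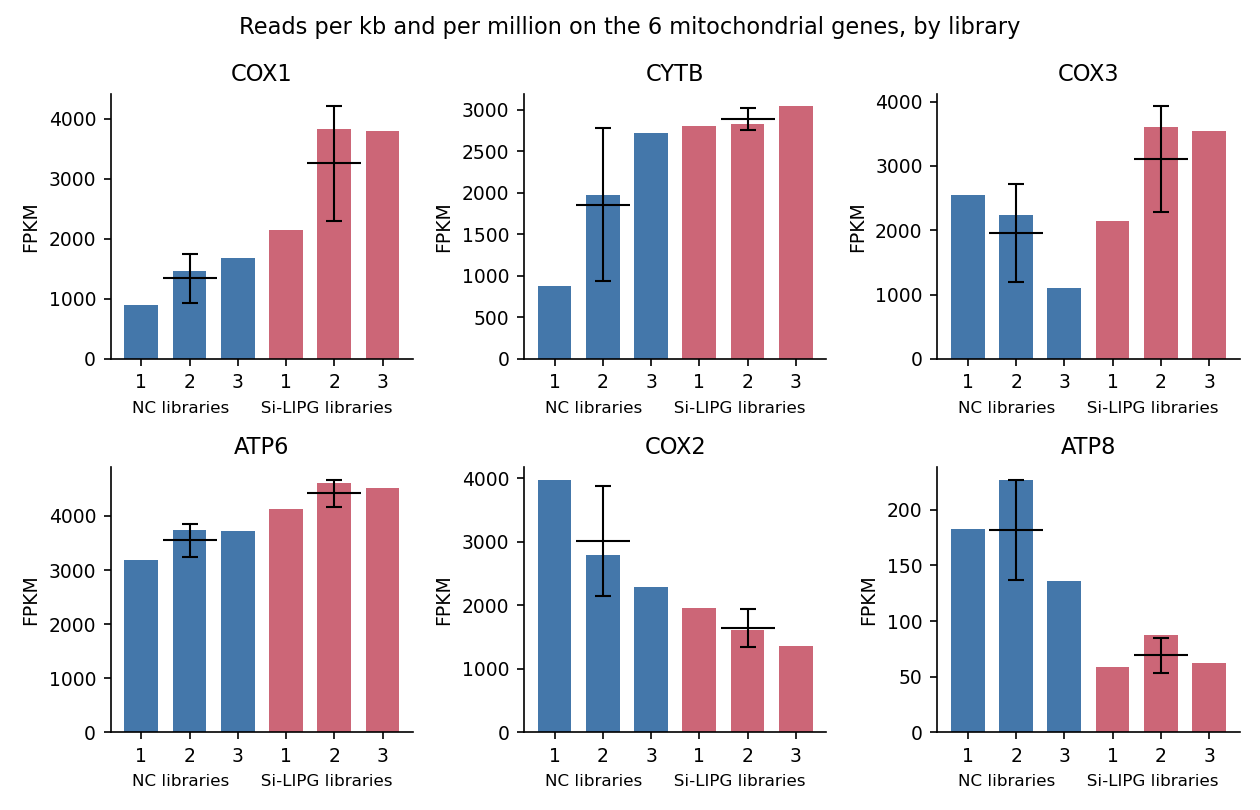
FPKM of the 6 mitochondrial genes in the 3 NC libraries (blue) and 3 Si-LIPG libraries (red). Bars are single libraries, horizontal lines the group means and whiskers the SD (n = 3). On this scale COX1, CYTB and ATP6 were higher in all Si-LIPG libraries, COX2 and ATP8 lower, and COX3 overlapped, whereas after TMM scaling CYTB overlapped and ATP6 ran the other way, and with all reads as the scale COX2 and ATP8 overlapped.

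The direction of several of the 6 genes turned with the scaling, as did the level of all genes together. The median log2 fold change over all tested genes was 0.16 after TMM scaling, 0.74 with the reads on genes alone as the scale and 1.58 with all reads. A change of scaling shifts all genes nearly alike, so that the distance of a gene from this median is almost fixed by construction and is given as a description. The log2 fold change of COX1 was 0.54 to 0.59 above the median under 5 scalings. The difference from the median was -1.71 to -1.55 for COX2 and -2.15 to -2.05 for ATP8. For ATP6 it ranged from -0.45 to -0.38 and for CYTB from -0.14 to -0.01, and COX3 lay on either side of the median (-0.22 to 0.09). On the TMM scale, 6.75% of all tested genes had a lower log2 fold change than COX2 and 1.52% a lower one than ATP8, whereas 77.0% were below COX1.

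**Figure D2:**
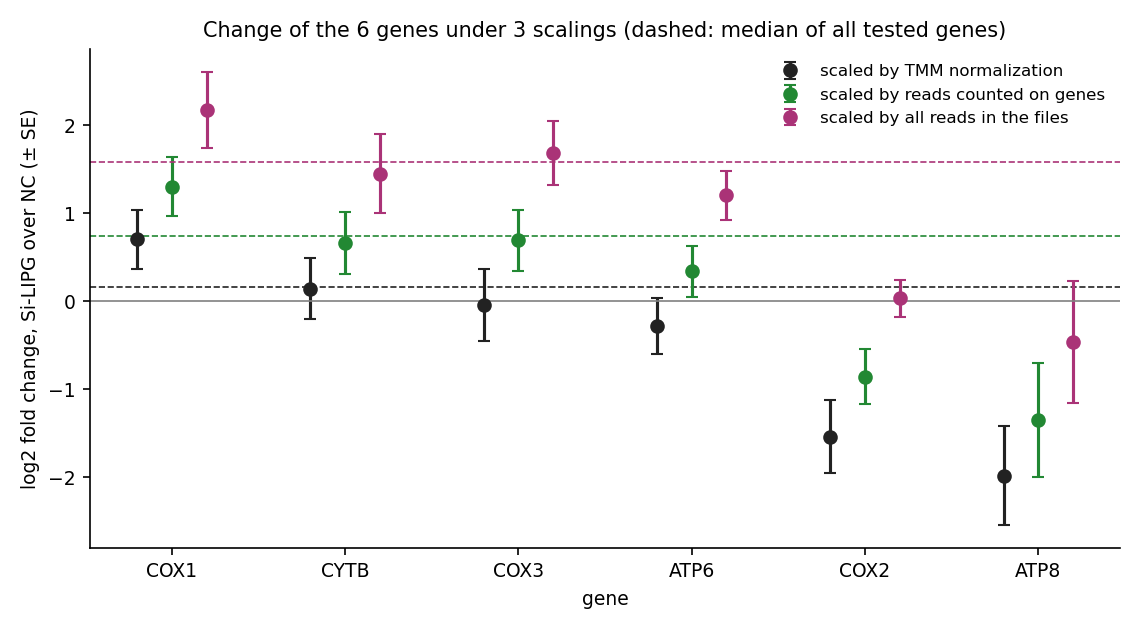
Log2 fold change (Si-LIPG over NC, 3 libraries each) of the 6 genes from edgeR under 3 scalings, with the SE as whiskers. Dashed lines mark the median of all tested genes under the same scaling (0.16, 0.74 and 1.58), and COX2 and ATP8 lie under it and COX1 over it in each.

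The order of the levels within a group differed as well. In the NC groups the mean FPKM ran from ATP6 (3549) over COX2 (3020), COX3 (1958), CYTB (1857) and COX1 (1344) to ATP8 (182). The ranges of each neighbouring pair overlapped apart from COX1 and ATP8, although COX2 was above COX3 within every NC library. In the Si-LIPG groups the order was ATP6 (4418), COX1 (3254), COX3 (3102), CYTB (2893), COX2 (1640) and ATP8 (69.4). Here ATP6 was above COX1, CYTB above COX2 and COX2 above ATP8 without overlap. The ranges of COX1, COX3 and CYTB overlapped, although COX1 was above COX3 within every Si-LIPG library. COX1 thus moved from the fifth place to the second and COX2 from the second to the fifth.

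A ratio of 2 genes inside a library does not depend on how libraries are scaled to each other. The FPKM ratio of COX1 to COX2, both core subunits of complex IV, was 0.224, 0.522 and 0.734 in NC 1, 2 and 3, against 1.10, 2.38 and 2.79 in Si-LIPG 1, 2 and 3. COX1 was thus below COX2 in every NC library and above it in every Si-LIPG library, with a log2 difference of 2.14 (SE 0.66). The ratio of ATP6 to ATP8, both subunits of complex V, was 17.5, 16.5 and 27.3 in NC and 70.7, 52.7 and 72.4 in Si-LIPG, a log2 difference of 1.70 (SE 0.27). ATP8 had only 10 to 27 reads per library, is shorter than the insert and overlaps ATP6. This ratio is therefore one of reads counted on the 2 genes and does not show a difference between separate RNAs. The ratio of COX3 to COX2 was 0.639, 0.801 and 0.479 in NC and 1.10, 2.25 and 2.61 in Si-LIPG (log2 difference 1.57, SE 0.44). The ratio of COX1 to ATP6 also separated the groups, from 0.280, 0.390 and 0.453 in NC to 0.521, 0.830 and 0.838 in Si-LIPG. The ratios of COX1 to COX2 and to ATP6 also rose inside each group, in the order of the share of reads on genes. This share was 0.997%, 1.41% and 1.53% in NC 1, 2 and 3, and 1.80%, 2.63% and 2.88% in Si-LIPG 1, 2 and 3. Within NC, ATP6 to ATP8 and COX3 to COX2 did not follow that order. The share and the silencing cannot be told apart for these ratios.

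Of the 15 pairs of genes, 9 had ratios that did not overlap between the groups. They were all 8 ratios of COX1, CYTB, ATP6 or COX3 to COX2 or ATP8, and that of COX1 to ATP6. The 8 ratios reuse COX2 or ATP8, so the 9 are not separate results. No share over other pairs of genes was computed to set beside them, and for single genes 28.7% of those tested did not overlap after TMM scaling. For each of the 9, the two-sided exact permutation p was 0.1, the smallest that 3 libraries against 3 allow, and the Benjamini-Hochberg value over the 15 pairs was 0.167. COX2 and ATP8, which lie side by side in the mitochondrial genome, kept overlapping ratios to each other (21.8, 12.3 and 16.8 in NC, 33.5, 18.4 and 21.8 in Si-LIPG, exact permutation p = 0.2). The log2 difference of that ratio was 0.52 (SE 0.35).

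**Figure D3:**
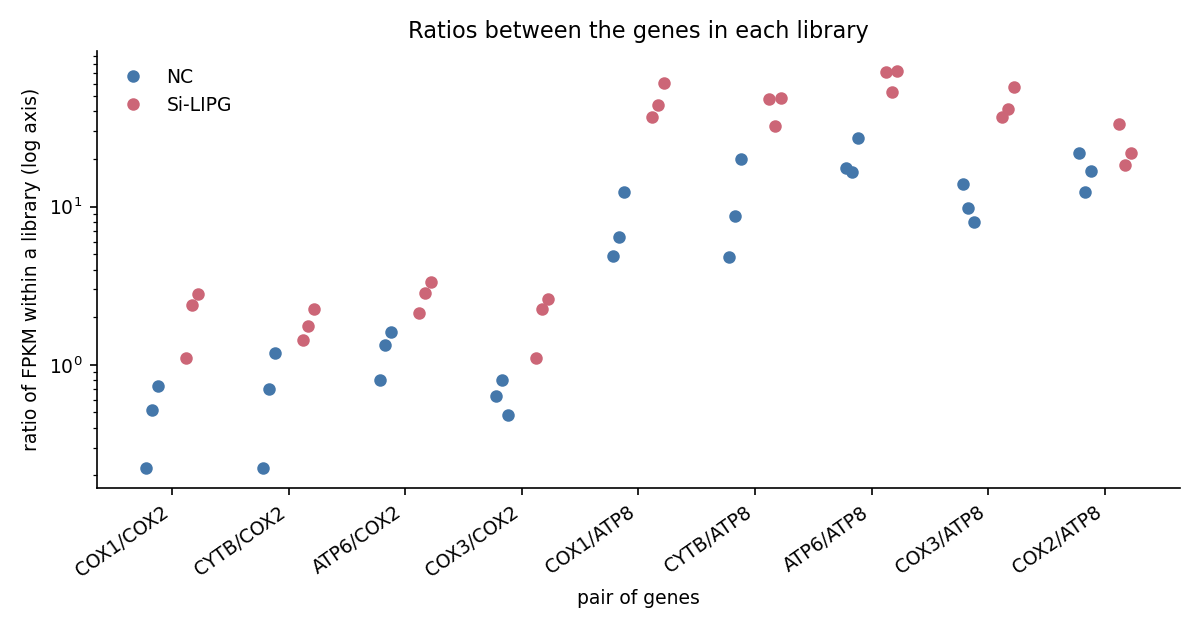
FPKM ratios of 9 pairs of the genes within each library, on a log axis, with 1 point per library (3 NC in blue, 3 Si-LIPG in red). The 8 ratios of COX1, CYTB, ATP6 or COX3 to COX2 or ATP8 do not overlap between the groups, and COX2 to ATP8 does.

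Among the counts on the 12 mitochondrial protein genes other than ND6, the 6 genes together held 32.5%, 38.7% and 38.5% in NC 1, 2 and 3, against 41.0%, 45.5% and 46.0% in Si-LIPG 1, 2 and 3. The groups did not overlap, and the means of 36.5% ± 3.50 and 44.2% ± 2.70 (SD, n = 3 each) differed by 7.604 percentage points. COX1 held 7.43% ± 2.35 in NC and 14.8% ± 3.22 in Si-LIPG, while COX2 held 7.34% ± 1.97 and 3.39% ± 0.931. With ND6 in the base, COX2 held 2.01% ± 0.354 and 1.55% ± 0.110, and the groups overlapped. ATP6 lay between 8.77% and 9.34% of the pool in all libraries but NC 1 (7.59%), with means of 8.62% ± 0.890 and 8.97% ± 0.320. CYTB had 7.58% ± 3.85 and 9.85% ± 0.779, and COX3 had 5.45% ± 2.06 and 7.15% ± 1.35. Single libraries decided these differences, which went from 2.27 to 0.229 points without NC 1 for CYTB and from 1.70 to 0.521 points without NC 3 for COX3. As a share of all reads on genes, the 6 genes together held 1.02% ± 0.0814 in NC and 1.49% ± 0.220 in Si-LIPG, again without overlap (NC 0.931% to 1.07%, Si-LIPG 1.24% to 1.62%).

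**Figure D4:**
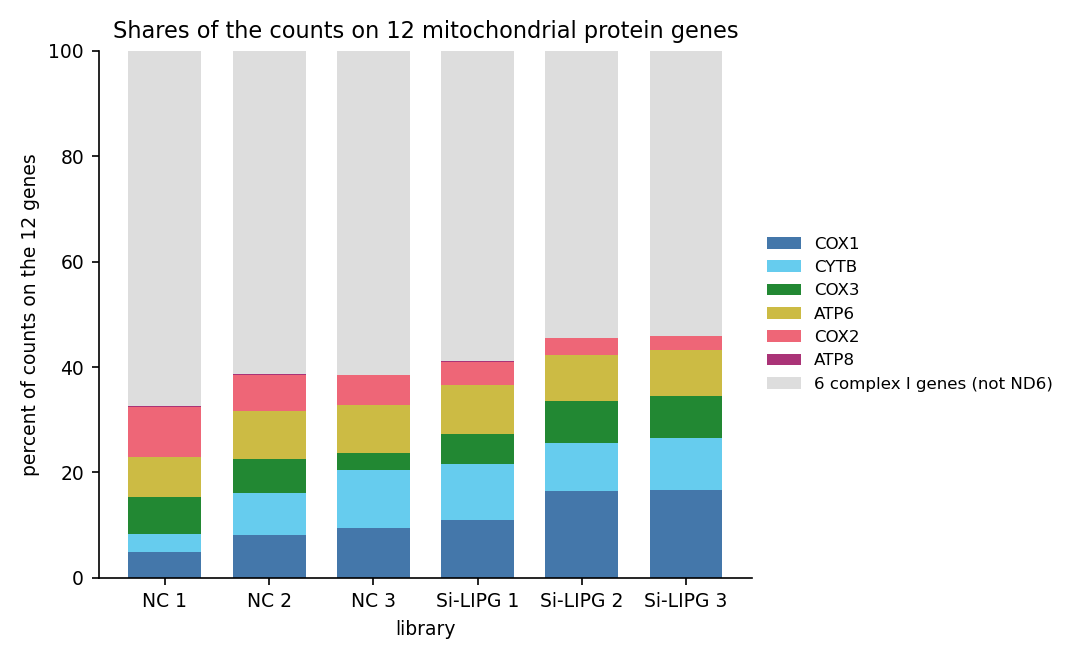
Percent of the counts on 12 mitochondrial protein genes (all but ND6) that fell on each of the 6 genes and on the 6 complex I genes together, in each of the 3 NC and 3 Si-LIPG libraries. The 6 genes together hold 32.5% to 38.7% in NC and 41.0% to 46.0% in Si-LIPG, and COX2 takes a smaller part in Si-LIPG.

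Among the complex I genes of the same genome, ND3 and ND4L were the ones lower at the adjusted threshold, with log2 fold changes after TMM scaling of -1.96 (SE 0.51, edgeR adjusted p = 0.0400) and -1.89 (SE 0.40, adjusted p = 0.0395). ND1, the first protein gene after the ribosomal RNA genes, had 1.11 (SE 0.35, adjusted p = 0.0738). On leaving out 1 library, the adjusted p of ND3 and ND4L reached 0.253. With all reads as the scale, ND3 had -0.39 (edgeR adjusted p = 0.345), ND4L had -0.28 (adjusted p = 0.588) and ND6 had -0.076 (adjusted p = 0.548), and with a covariate for the percent of reads on genes ND3 turned to 0.46 and ND6 to 0.071 (adjusted p = 0.998 for both). The median over the 7 was -0.62. ND6 had 35706 to 49242 reads in NC and 31374 to 46624 reads in Si-LIPG, with a log2 fold change of -1.56 (SE 0.51, adjusted p = 0.0805). ATP8 overlaps ATP6 and ATP6 overlaps COX3 in the RefSeq annotation, and 0.0101% to 0.0134% of a library's reads were set aside as ambiguous between genes.

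**Figure D5:**
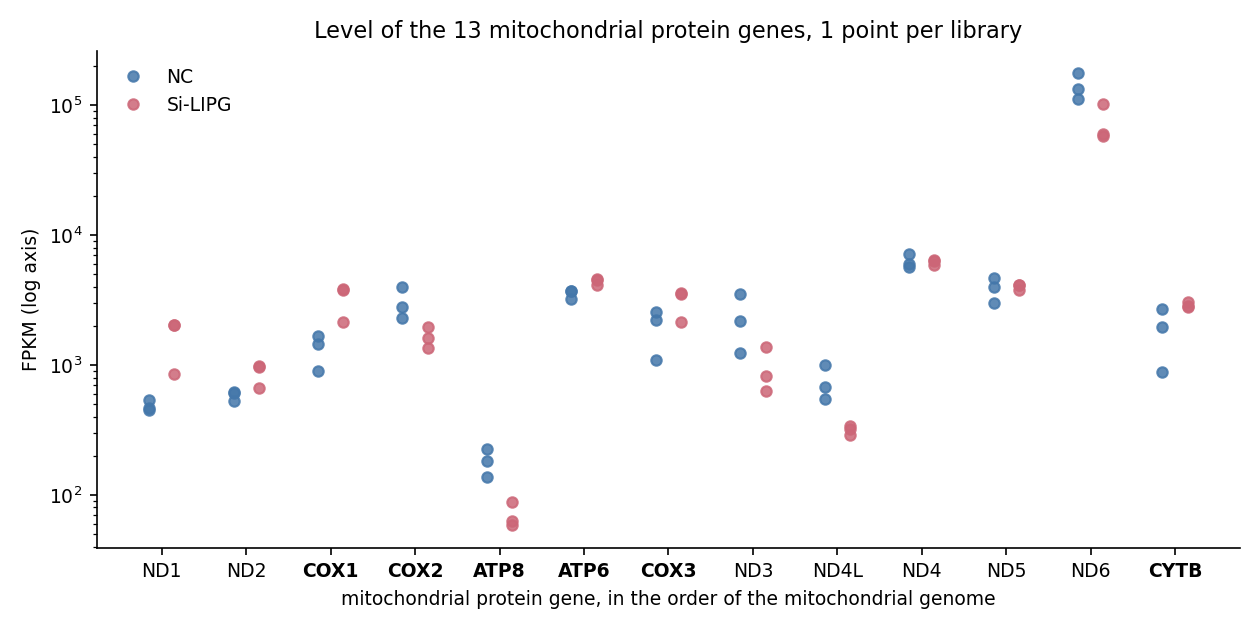
FPKM (log axis) of the 13 mitochondrial protein genes in the order of the mitochondrial genome, with 1 point per library (3 NC in blue, 3 Si-LIPG in red) and the 6 genes of complexes III, IV and V in bold. ATP8 is lowest and ND6 highest, and on this scale ND1, ND2, COX1, ATP6 and CYTB are higher in Si-LIPG without overlap while COX2, ATP8, ND4L and ND6 are lower. After TMM scaling ND2 and CYTB overlap and ATP6 is lower, and with all reads as the scale COX2, ATP8, ND4L and ND6 overlap.

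The log2 fold changes of the 6 genes lay nearly in the order of their lengths. From COX1 (1545 bp), CYTB (1140 bp), COX3 (784 bp) and COX2 (684 bp) to ATP6 (681 bp) and ATP8 (198 bp), Spearman's rho of the log2 fold change with length was 0.943 across these 6 genes. It was 0.703 across the 13 mitochondrial protein genes and 0.121 across all tested genes. Genes are not independent replicates, and these genes share libraries and one precursor RNA. ATP6 and COX2 are nearly equal in length, and the log2 of their FPKM ratio differed by 1.18 between the groups (SE 0.36). With the length trend of each library taken out, a correction chosen after seeing the data, COX2 had a log2 fold change of -1.57 (edgeR adjusted p = 0.0560) and ATP8 of -1.49 (adjusted p = 0.130). After this correction rho was 5.69e-05 across all tested genes, but still 0.829 across the 6 genes and 0.621 across the 13. The part of length in these changes was not tested. The share of reads on genes separated the groups too, and with it as a covariate COX2 had 0.08 and ATP8 -1.33 (edgeR adjusted p = 0.998 for both). This share and the silencing of LIPG cannot be told apart with 6 libraries.

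Few of the nuclear genes that complete complexes III, IV and V were found by name in the files, and these mostly did not pass the test. Of the 27271 genes in the files, 18989 have a name. For complex IV, a list of 16 symbols matched 7 genes in the files, and 3 had enough counts. Their median log2 fold change was 0.18, against 0.16 over all tested genes. At an unadjusted p under 0.05, 2 of the 3 differed in edgeR, 1 in each direction, beside 1361 of all 6574 tested genes. At the adjusted threshold, 0.974% of all tested genes were called higher and 5.54% lower. COX7A2L, which takes part in joining complexes III and IV, was the one called. It had counts of 0, 0 and 6 in NC and 21, 48 and 61 in Si-LIPG (log2 fold change 3.21, SE 0.92). The edgeR adjusted p was 0.04996, just under the threshold, and up to 0.256 without 1 of the libraries. COX7A2L passed the filter on low counts through the Si-LIPG libraries alone. A higher level there was thus a condition of its being tested, and its call is given as a description. COX7A1, a subunit form of muscle and other contractile tissue, had -1.44 (SE 0.45, edgeR adjusted p = 0.0700) and 0.097 with all reads as the scale; it was named after its values were seen. Of 18 complex IV assembly genes in the files, 4 were tested and 0 were called by edgeR or DESeq2. The smallest p values belonged to COA4 (-0.59, SE 0.70) and to COX10 (0.60, SE 0.76), which makes heme O for complex IV. In edgeR, 0 of the 4 had an unadjusted p under 0.05.

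A list of 10 symbols for complex III and cytochrome c matched 5 genes in the files, and all 5 had positive log2 fold changes. Their median was 0.75, against 0.16 over all tested genes. Of the 5, 0 were called by edgeR or DESeq2 and 0 had an unadjusted p under 0.05 in edgeR. CYC1, the cytochrome c1 that CYTB works beside, had 2, 13 and 12 reads in NC and 28, 48 and 51 reads in Si-LIPG (log2 fold change 1.07, SE 0.57, edgeR adjusted p = 0.314). UQCRFS1, the Rieske iron-sulfur protein, had 0.95 (SE 0.91, adjusted p = 0.622). Of 6 genes for complex III assembly in the files, 2 were tested, UQCC2 (0.56, SE 0.92) and TTC19 (-0.25, SE 0.67), and 0 were called. For complex V, a list of 36 symbols matched 5 genes in the files, and 0 of these were called (median 0.48, against 0.16 over all). For this list and that of complex III assembly, 0 genes had an unadjusted p under 0.05 in edgeR or a call by DESeq2. The catalytic beta subunit of complex V, ATP5F1B, had 52, 92 and 108 reads in NC and 177, 300 and 356 reads in Si-LIPG (log2 fold change 0.48, SE 0.30, adjusted p = 0.396 from edgeR). The gamma subunit ATP5F1C had 0.48 (SE 0.39, adjusted p = 0.541). None of the 3 complex V assembly genes in the files had enough counts.

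Of 30 genes in the files for transcription, replication and RNA processing in mitochondria, 15 were tested, with 0 called higher and 2 lower, beside 0.974% and 5.54% of all tested genes (median 0.30, against 0.16 over all). POLG, the polymerase that copies mitochondrial DNA, had a log2 fold change of -1.50 (SE 0.40, edgeR adjusted p = 0.0411). FASTKD1, of a family of mitochondrial RNA-binding proteins, had -1.44 (SE 0.37, adjusted p = 0.0400 from edgeR). Of 14 regulators of mitochondrial formation, 7 were tested, with 0 called higher and 2 lower, beside the same shares of all tested genes (median -0.44, against 0.16 over all). ESRRA, a nuclear receptor that drives genes of oxidative metabolism, had -1.63 (SE 0.37, edgeR adjusted p = 0.0395), and the transcription factor YY1 had -1.48 (SE 0.38, adjusted p = 0.0400). As for COX2, these values were near 0 with all reads as the scale (0.06 for POLG, 0.08 for FASTKD1, -0.24 for ESRRA and 0.14 for YY1), and on leaving out 1 library the edgeR adjusted p reached 0.253 to 0.255.

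The genes whose pattern over the 6 libraries was most like the mean log2 CPM of the 6 mitochondrial genes were sought among all tested genes. That mean was 10.6, 10.3 and 10.1 in NC 1, 2 and 3, against 9.92, 9.97 and 9.81 in Si-LIPG 1, 2 and 3. CCDC66 (Pearson's r = 0.993), GBA2 (0.993), POLH (0.989) and DNASE1L3 (0.988) came closest, together with ENSCHIG00000021921, a hypothetical protein (0.995). The libraries share their scaling factors across all genes, and NC 1, which had the lowest factor (0.601), was the highest library for the mean of the 6 genes.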

How the data were processed

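RNA-seq libraries of 3 NC and 3 Si-LIPG samples were compared. The authors deposited raw counts per gene and library and a table of FPKM values. Per the labels, fastp, HISAT2, SAMtools and HTSeq were used; versions, genome build and the strand setting are not given in the sources used here. FPKM values scaled the same counts by gene length and by reads on genes. The 5 rows that name no gene, mostly reads on no feature (91.6% to 93.7% of a library), did not enter library sizes or tests. Poly(A) selection and the low share of reads on genes limit what the counts represent.

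Tests on counts used edgeR 4.0.16 in R 4.3.3 (filterByExpr, TMM, quasi-likelihood test, Benjamini-Hochberg adjustment over 6574 genes), and ratios with exact permutation tests in scipy 1.17.1. Alternatives used DESeq2 1.42.0, which the study names, limma 3.58.1 on log2(FPKM + 1) and log2(FPKM + 0.1), other scalings and filters, a replicate block, a covariate, a length correction and leaving out each library. The prior count of log2 CPM was 2. A library without a read of a gene allows up to 3 reads, 2.85 to 5.72 CPM over reads on genes, covering counting error only. Replicates differed by more than sampling noise (chi-square over degrees of freedom, 4.21 to 12.5).

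Named genes were the 6 genes, those of each list with an adjusted p under 0.05 (at most 4) or otherwise the 2 with the smallest p, the 5 most correlated genes, the complex I genes and LIPG. The marker lists gave LUM as called higher (log2 fold change 1.71, edgeR adjusted p = 0.0395, and up to 0.253 without 1 of the libraries). LUM is 1 of 10 tested preadipocyte markers, of which 8 had log2 fold changes above 0 and 2 below. Those below were ENG at -1.07 (edgeR adjusted p = 0.0844) and THY1 at -0.38 (adjusted p = 0.658). The members and lists were chosen with earlier results of these data known. Data were simulated for 6574 genes, 200 of them changed, and 5990 passed the filter and were tested. Of these, edgeR called 58, including 3 false ones. It found 50% of the 4-fold and 5% of the 2-fold changes, where any changed gene that the filter removed counted as missed. RefSeq's ARS1.2 table was used for names, lengths and neighbours only.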

Additional observations from a re-analysis of the deposited data

How the results depend on the processing

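Genes with an adjusted p under 0.05 (428) numbered 123 with library sizes alone, 750 scaled to all reads, 714 with at least 10 counts in every library and 0 with limma at either pseudocount (1912 and 1671 at an unadjusted p under 0.05) or with a covariate, the share of reads on genes (0 adjusted and 187 unadjusted in edgeR), and 0 to 648 on leaving out one library; it was 0 in edgeR without NC 1, NC 2, Si-LIPG 2 or Si-LIPG 3, with 871 to 1616 genes at an unadjusted p under 0.05. At the study's criterion the 1361 genes became 3032 scaled to all reads, 2044 with no filter, 187 with the covariate and 871 to 1692 on leaving out one library. Of the 6 genes, 2 were called; 1 was with library sizes alone, with upper quartile scaling and with no filter, 0 with limma, the covariate or the length correction, and 0 to 2 on leaving out one library. At the study's criterion, 2 passed, 3 with DESeq2, 4 scaled to all reads and 0 with the covariate. DESeq2 called the same 2, COX2 and ATP8, as did the fits with DESeq2's size factors and without mitochondrial genes in the scaling.

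Signs turned for COX2 scaled to all reads (0.032) and with the covariate (0.083). COX3 turned to 0.69 with library sizes alone, 1.68 with all reads, 0.034 with upper quartile scaling, 0.092 with no filter, 0.29 with at least 10 counts, 0.71 with limma at either pseudocount and 0.86 with the covariate, and ranged from -0.38 to 0.48 on leaving out one library. CYTB turned to -0.18 with the covariate and ranged from -0.092 to 0.43 on leaving out one library. ATP6 turned to 0.34 with library sizes alone, 1.20 with all reads, 0.0034 with at least 10 counts, 0.32 with limma at either pseudocount and 0.16 with the covariate. With ND6 in the base, the 6 genes' share differed by 10.8 points and that of COX2 by -0.47 in place of -3.95. The cause of the turns was not tested. Over the 19 alternatives the adjusted p ranged up to 0.998 for each of the 6, from 0.000584 for COX1, 7.80e-10 for COX2, 0.0462 for COX3 and ATP6, 0.0538 for CYTB and 0.00740 for ATP8.

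With the replicate number as a replicate block, 925 genes and 3 of the 6 were called: COX1 (0.69, edgeR adjusted p = 0.000584) beside COX2 and ATP8, and COX3 turned to 0.13. Same-numbered libraries correlated at 0.210, 0.0639 and 0.105 in their deviations, and NC 2 correlated best with Si-LIPG 3 (0.0890), so the numbers were not taken as pairs.

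Depth limits ATP8 most, with 10 to 27 reads per library. With 3 libraries a group, changes of 2-fold were mostly missed on simulated data.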
